A study of Homo sapiens with 66 samples.

Results

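Ribosome biogenesis factors are described here in 2 human multiple myeloma lines treated with inhibitors of prolyl-tRNA synthetase (ProRS), the enzyme that charges proline onto its tRNA. The set holds 40 genes, chosen by name: nucleolar processing factors and subunits of RNA polymerase I. Of these, 39 had a row in the count table of 20167 genes, and BOP1 was not analysed here. Poly(A) RNA was sequenced from 66 libraries in 22 groups of 3. AMO1, an established myeloma line labelled AMO-1 WT, was treated with the solvent DMSO, carfilzomib (CFZ, a proteasome inhibitor), NCP26, NCP22, halofuginone (HFG, labelled MAZ1392) or halofuginol (MAZ1805), each for 6 h and 24 h. CFZr L363, a carfilzomib-resistant subline of the myeloma line L363 written L363-CFZr below, received the same agents except CFZ. NCP26, NCP22, HFG and halofuginol were given at 1 µM. Every L363-CFZr group, its DMSO control included, carries the resistance, no group of unselected L363 was measured, and the labels do not say whether the subline is a clone. HFG and NCP26 inhibit the ProRS activity of the bifunctional synthetase GluProRS, the product of EPRS. NCP22 is the compound from which NCP26 was developed, and the pair differ in a cyclohexyl ring (NCP22) against a piperidinyl ring (NCP26). Halofuginol is an analogue of HFG. By the paper's binding assay NCP22 and halofuginol also bind ProRS, NCP22 more weakly than NCP26 with proline present and halofuginol more weakly than HFG with ATP.

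Ribosomes are built in the nucleolus, where RNA polymerase I transcribes a long precursor of the ribosomal RNAs. Small nucleolar ribonucleoproteins (snoRNPs) guide chemical modification of that precursor: the box C/D class places methyl groups on the ribose and the box H/ACA class converts uridine to pseudouridine. The small subunit processome assembles on the precursor to shape the 40S subunit, and separate factors, among them the PeBoW complex, mature the 60S subunit. The process is costly and is adjusted to growth and to amino acid supply, and plasma cell tumours, which secrete large amounts of protein, depend on a high output of ribosomes. The 39 measured genes were grouped into 8 roles: box C/D core (3 genes), box H/ACA core (4), nucleolar phosphoproteins and scaffolds (3), PeBoW (2 measured), other 60S factors (8), 40S factors (12), RNA polymerase I subunits (4) and nucleolar regulators (3).

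A feature of these genes that the choice by name did not use is the canonical E-box, the 6 letters CACGTG, which is bound by basic helix-loop-helix leucine zipper factors. It reads the same on both strands. RefSeq promoter windows of the hg38 build, running from 250 bases before to 50 bases after a transcript start, were found for 33 of the 39 genes. The E-box was present in a window of 15 of those 33 genes (45.5%), against 28 of 114 other ribosome biogenesis genes (24.6%) and 1643 of 14958 genes of the count table (11%). Counted by window, the letters stood in 15 of 38 member windows (39.5%) and in 2548 of 35116 windows of all RefSeq genes (7.26%). These shares are a description of the letters, and no binding was measured.

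Stretches of 30 bases around the E-box are shown for 8 members whose levels are described below, 5′ to 3′ on the strand of the gene, with the E-box in capitals.
FBL (chr19:39846356-39846385, minus strand): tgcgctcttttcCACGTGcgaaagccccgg
PES1 (chr22:30591880-30591909, minus strand): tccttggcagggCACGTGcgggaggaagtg
NOP2 (chr12:6568242-6568271, minus strand): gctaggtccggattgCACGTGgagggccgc
UTP20 (chr12:101280083-101280112, plus strand): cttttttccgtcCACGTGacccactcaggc
NAT10 (chr11:34105602-34105631, plus strand): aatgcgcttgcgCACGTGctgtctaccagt
GNL3 (chr3:52686026-52686055, plus strand): ggcttcagttcaCACGTGgcgccagcggag
DDX21 (chr10:68956604-68956633, plus strand): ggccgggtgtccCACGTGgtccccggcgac
MYBBP1A (chr17:4555340-4555369, minus strand): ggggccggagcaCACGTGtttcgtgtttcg

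Gene counts summed to 1666325 to 5761682 per library in AMO1 (median 3009496) and to 2487872 to 6596543 in L363-CFZr (median 3562784.5). Every member passed the filter on low counts in every comparison, with 28 to 17344 reads in a library. Of the members, 8 share over 20% of their 31-base words with other genes, among them NOP2 (53.61%), NHP2 (34.25%) and NOB1 (32.05%), and reads of such genes could be divided between copies by the authors' counting. Levels are given as CPM, counts scaled to a common library total, after TMM scaling over all 66 libraries. They are not divided by gene length and serve to compare libraries, not genes. The study's methods speak of biological triplicates in general and of triplicates for the conditions of this experiment, and neither they nor the labels say whether the libraries of a group came from separate cultures, so p-values measure the spread between these libraries, which may be technical. In bulk RNA, fewer cells of a kind and less RNA per cell cannot be told apart. The lines carried their label's markers: 9 plasma cell markers stood at 52.2 to 6189 CPM, and 17 markers of other cell types reached at most 9.71 CPM in AMO1 and 5.98 CPM in L363-CFZr.

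Several libraries stood apart from the others of their group. POLR1A, the largest subunit of RNA polymerase I, was at 58.5, 179.8 and 59.5 CPM in the L363-CFZr DMSO libraries at 24 h, so replicate 2 held a value far above the other two. The AMO1 CFZ libraries at 24 h showed the same pattern for POLR1A, at 75, 184 and 81.3 CPM. In the L363-CFZr NCP26 libraries at 6 h POLR1A was at 54.4, 31.7 and 59.7 CPM, with replicate 2 low. In the AMO1 NCP26 libraries at 6 h, replicate 1 had 15581 genes with a read against 13577 and 13636, and NOP10, a core protein of the box H/ACA particle, was at 70.5, 45.4 and 37.7 CPM. The L363-CFZr DMSO library at 24 h also had more genes with a read than the others of its group (14353 against 13564 and 13663), as did the AMO1 CFZ library (14414 against 13720 and 14007). Counts that rest on these 4 libraries are given with and without them, except in the fit with a library set term described below. Library numbers in the column names recur 3 times, which divides the 66 libraries into 3 sets. The AMO1 6 h libraries and the AMO1 24 h DMSO libraries belonged to the first set, whereas the AMO1 24 h NCP26, HFG, NCP22 and halofuginol libraries belonged to the second. For AMO1 at 24 h, comparisons with DMSO therefore crossed the sets, and only 1 library, CFZ replicate 1, tied one set to the other. It stood against CFZ replicates 2 and 3 of the second set, and replicate 2 is the library named above. Values with a set term for AMO1 at 24 h thus rest in part on replicate 2, and none was fitted without it. Comparisons between NCP26, NCP22, HFG and halofuginol at 24 h lay within a set. In L363-CFZr, all 24 h libraries lay in the third set, and at 6 h DMSO and NCP26 lay in the second and HFG and halofuginol in the third. NCP22 at 6 h was split, with replicates 1 and 2 in the second set and replicate 3 in the third. Only replicate 3 thus tied the sets in L363-CFZr at 6 h, and comparisons with NCP22 at that time crossed the sets in part. A fit with the set as a term took in all groups of a line and time, or all groups where effects were compared. It is given beside a count that it moved by over 1.5 times and beside a member printed with its adjusted p that lost its call.

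In the DMSO libraries, levels per kilobase of the longest annotated transcript of a gene spanned a wide range. The order of members by this measure depends on that choice of length. NPM1 was highest among members, at 604 CPM per kb in AMO1 and 629 CPM per kb in L363-CFZr (means of 6 libraries over both times). NCL followed in AMO1 at 325 CPM per kb, whereas in L363-CFZr NHP2 came second at 262 CPM per kb. FBL stood at 219.6 CPM per kb in AMO1 and 147 in L363-CFZr. The lowest member was UTP20, at 4.12 CPM per kb in AMO1 and 5.02 in L363-CFZr. POLR1A and POLR1B were close to it, at 7.68 and 6.75 CPM per kb in AMO1. Across the 22 group means, 25 of the 39 members had their lowest level in AMO1 treated with NCP26 for 24 h. The share of all genes with their lowest level there was not counted. The ratio of the highest to the lowest group mean ran from 1.5 for WDR75 to 5.04 for NOP16.

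The summed level of the 39 members gives a single view of the set. It was 8041, 8517 and 8005 CPM in AMO1 DMSO at 6 h, 6041, 6267 and 5871 CPM with NCP26 and 6050, 5683 and 5728 CPM with HFG. All treated libraries lay below all controls. At 24 h the DMSO libraries held 6145, 5900 and 6306 CPM, NCP26 4162, 4149 and 4155 CPM and HFG 5474, 5393 and 5571 CPM. On this scale NCP26 was lowest, HFG between, and DMSO highest without overlap. As a share of all counts, before TMM scaling, HFG (0.583% to 0.597%) overlapped DMSO (0.585% to 0.628%), while NCP26 stood at 0.46%. The 24 h DMSO libraries also lie in another library set than those of NCP26 and HFG. In L363-CFZr at 6 h the sums were 7492, 7600 and 7356 CPM with DMSO, 6902, 7535 and 6677 with NCP26 and 6862, 6690 and 6690 with HFG. The HFG libraries lay below the controls, while 1 NCP26 library lay among them. As a share of all counts, HFG (0.705% to 0.723%) lay within the range of DMSO (0.687% to 0.736%). At 24 h the sums were 6313, 4602 and 6199 CPM with DMSO, 5478, 5937 and 6063 with NCP26 and 6505, 6517 and 6603 with HFG, and replicate 2 of DMSO was the lowest of these 9 libraries. NPM1 and NCL make up a large part of each sum. DMSO libraries themselves differed with time: the mean was 8188 CPM at 6 h and 6117 CPM at 24 h in AMO1. The 6 h samples were frozen before RNA extraction and the 24 h samples were kept on ice, so time and storage cannot be told apart in these levels.

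**Figure D1:**
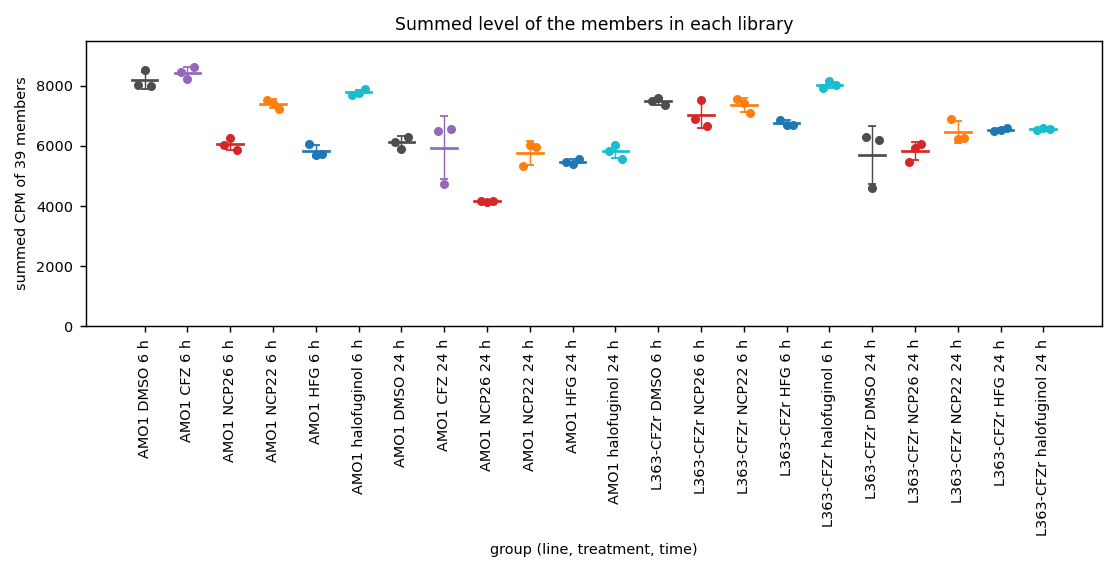
Summed level of the 39 ribosome biogenesis factors in CPM (vertical axis) for each library (points) of the 22 groups (horizontal axis), with the mean and SD of 3 libraries. AMO1 with NCP26 at 24 h was lowest, at 4162, 4149 and 4155 CPM, and replicate 2 of L363-CFZr DMSO at 24 h lay at 4602 CPM, apart from the other libraries of its group.

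Whether ProRS inhibition changed the factors in AMO1 within 6 h was tested first, against DMSO at the same time. Fold changes are on the log2 scale from edgeR's quasi-likelihood test, with p-values adjusted by Benjamini-Hochberg over all genes tested, and a gene counts as lower or higher where the adjusted p was under 0.05. NCP26 lowered 23 of 39 members and raised 2, with a median log2 fold change of -0.41. Over all tested genes 19.2% were lower and 18.1% higher, and the median was -0.01. HFG lowered 25 members and raised 3, with a median of -0.39, beside 26.6% lower and 27.7% higher over all genes. Without NCP26 replicate 1 the NCP26 counts were 22 lower and 2 higher, with 40.6% of all genes called. Fold changes ran with transcript GC content. Pearson's r was -0.37 across all genes and -0.51 across the members for NCP26, and -0.32 and -0.42 for HFG. An offset for GC content gave 19 lower and 1 higher for NCP26 (median -0.31), beside 16.8% and 15.9% of all genes. For HFG it gave 24 lower and 1 higher (median -0.33), beside 26.7% and 25.4%. The NCP26 and HFG comparisons share the same DMSO libraries. Of 130 other ribosome biogenesis genes, 44 were lower and 21 higher with NCP26 (median -0.11), and 47 and 27 with HFG (median -0.07). Markers of cell types other than plasma cells reached at most 9.71 CPM over all AMO1 libraries.

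**Figure D2:**
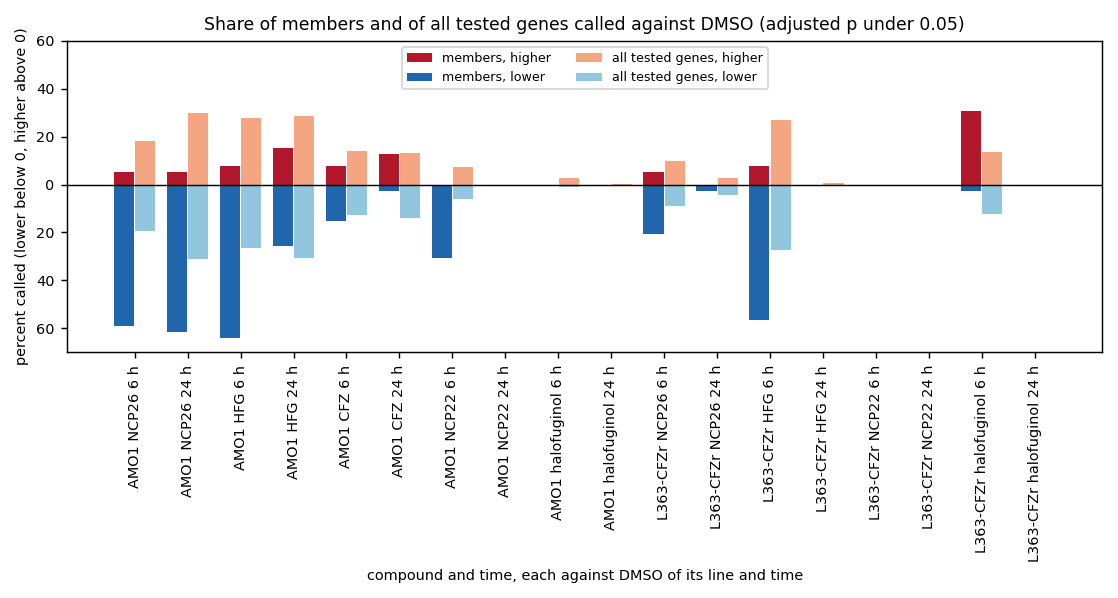
Percent of genes (vertical axis, lower drawn below 0 and higher above) that passed an adjusted p of 0.05 in each of the 18 comparisons of a compound with DMSO (horizontal axis), for the 39 members and for all tested genes. In AMO1 with NCP26 at 6 h, 59% of members were lower beside 19.2% of all genes.

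At 24 h in AMO1 the counts for NCP26 and HFG were unlike. NCP26 lowered 24 of 39 members and raised 2 (median -0.36), in a comparison where 30.9% of all genes were lower and 29.8% higher. HFG lowered 10 and raised 6 (median -0.07), beside 30.5% lower and 28.5% higher over all genes, so that the share of lowered members was near the share of all genes. Of 130 other ribosome biogenesis genes, 51 were lower and 27 higher with NCP26 (median -0.09). That was the direction of the members but weaker, at 39.2% lower and 20.8% higher against 61.5% and 5.13% of members. With HFG 24 were lower and 44 higher, the opposite balance to the members. With the library set as a term, which rests on 1 CFZ library, the members called fell from 26 to 11 with NCP26, where 20.7% of all genes were called, and the median was -0.39. HFG then had 4 members higher and 3 lower, beside 27% of all genes called. Of the members lower with NCP26, 23 at 6 h and 24 at 24 h, 19 were lower at both times. For HFG these counts were 25 at 6 h and 10 at 24 h, and all 10 had been lower at 6 h. A further 2 members were lower with HFG at 6 h and higher at 24 h, against 0 with NCP26. These overlaps were not counted over all genes.

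**Figure D3:**
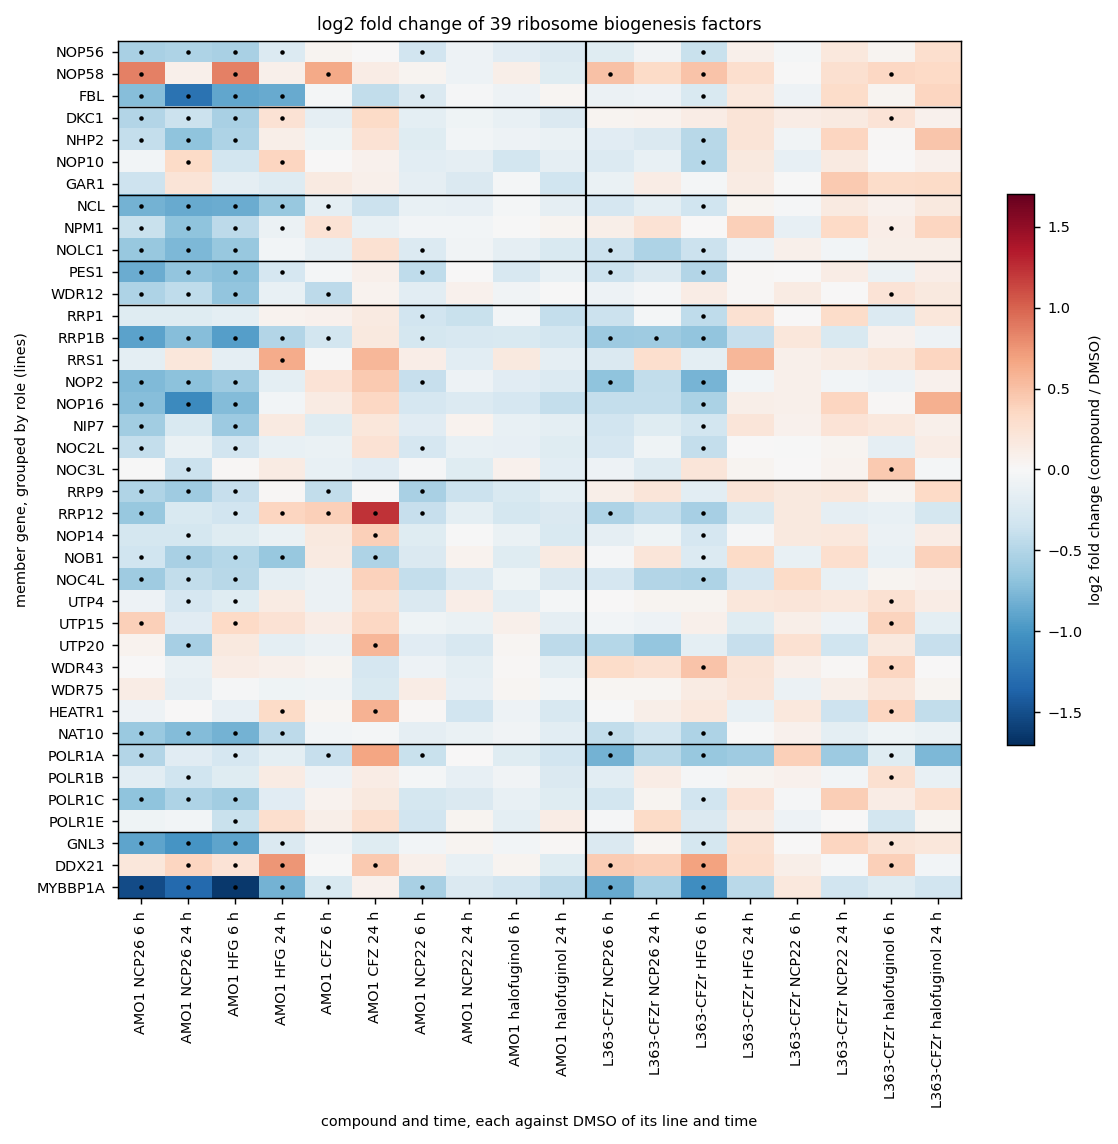
Log2 fold change of each of the 39 members (rows, lines separate the 8 roles) in the 18 comparisons with DMSO (columns), with colour from -1.7 to 1.7 and a dot where the adjusted p was under 0.05. MYBBP1A, RRP1B and NAT10 were lower in all 4 AMO1 columns of NCP26 and HFG, whereas NOP58 was higher at 6 h in both lines.

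The box C/D core moved in both directions. NOP56, a scaffold protein of the particle, was at 255, 265 and 224 CPM in the AMO1 DMSO libraries at 6 h, 166, 167 and 171 with NCP26 and 175, 159 and 164 with HFG. The treated libraries all lay below the controls. Its log2 fold change was -0.55 (SE 0.1, adjusted p = 0.0011) with NCP26 and -0.55 (SE 0.081, adjusted p = 3.7e-05) with HFG. At 24 h NOP56 was at 138, 126 and 163 CPM with DMSO, 97.1, 101 and 99.6 with NCP26 and 118, 111 and 135 with HFG, and the HFG libraries overlapped the controls. The log2 fold change was -0.53 (SE 0.08, adjusted p = 1e-06) with NCP26, which became -0.23 (SE 0.22, adjusted p = 0.5) with the set term.

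FBL, the methyltransferase of the particle, was at 359.7, 360.1 and 327 CPM with DMSO at 6 h, 224, 200.3 and 208 with NCP26 and 186, 189 and 179 with HFG. At 24 h it was at 262, 265 and 270.4 CPM with DMSO, 114, 110.2 and 111 with NCP26 and 169.5, 136 and 139 with HFG. The groups did not overlap at either time, and at 24 h NCP26 lay below HFG as well. This gave a log2 fold change of -0.72 (SE 0.099, adjusted p = 0.00018) with NCP26 at 6 h and -1.26 (SE 0.057, adjusted p = 4e-18) at 24 h. With HFG it was -0.88 (SE 0.071, adjusted p = 7.3e-08) at 6 h and -0.86 (SE 0.074, adjusted p = 1.4e-08) at 24 h. The set term left the 24 h value at -1.04 (SE 0.26, adjusted p = 0.0084) with NCP26 and at -0.64 (SE 0.26, adjusted p = 0.073) with HFG, where the call was lost. FBL was thus among the 2 largest member changes at 24 h with either inhibitor.

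NOP58, the partner of NOP56 in the same particle, went the other way. It was at 164, 192 and 176 CPM with DMSO at 6 h, 351, 336 and 267 with NCP26 and 350.4, 286 and 304 with HFG. CFZ also held it above the controls, at 279, 271 and 282 CPM. In log2 terms the change was 0.85 (SE 0.12, adjusted p = 0.00022) with NCP26, 0.85 (SE 0.088, adjusted p = 1e-06) with HFG and 0.64 (SE 0.072, adjusted p = 7.2e-07) with CFZ. At 24 h the values were 151, 137 and 158 CPM with DMSO and 161, 163 and 153 with NCP26, a log2 fold change of 0.09 (SE 0.064, adjusted p = 0.22). In L363-CFZr at 6 h NOP58 was at 134, 138 and 133 CPM with DMSO, 180.1, 212 and 173 with NCP26 and 189.6, 185 and 176 with HFG, again without overlap. The log2 fold change there was 0.5 (SE 0.1, adjusted p = 0.0083) with NCP26 and 0.48 (SE 0.067, adjusted p = 2.2e-06) with HFG. NOP58 carries small nucleolar RNA genes in its introns. Such genes were also among those sharing words with NOP56, NCL, DKC1 and GNL3, all lower with NCP26 in AMO1 at 6 h.

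In the box H/ACA core, 2 of 4 members fell with each inhibitor at 6 h, where 19.2% of all genes were lower with NCP26 and 26.6% with HFG. DKC1, the pseudouridine synthase dyskerin, was at 205, 223 and 189 CPM with DMSO, 131, 159 and 142 with NCP26 and 144, 132 and 135 with HFG. The fitted log2 fold change was -0.5 (SE 0.11, adjusted p = 0.0031) with NCP26 and -0.55 (SE 0.081, adjusted p = 3.5e-05) with HFG. At 24 h DKC1 was at 128, 120.5 and 129.9 CPM with DMSO, 96.1, 96.5 and 103 with NCP26 and 148, 136 and 165 with HFG, so that NCP26 lay below and HFG above the controls without overlap. The 24 h log2 fold change was -0.36 (SE 0.069, adjusted p = 4.5e-05) with NCP26 and 0.25 (SE 0.074, adjusted p = 0.0077) with HFG, and the NCP26 value became -0.07 (SE 0.18, adjusted p = 0.82) with the set term. NHP2, a core protein of the same particle, had a log2 fold change of -0.41 (SE 0.13, adjusted p = 0.026) with NCP26 at 6 h and -0.68 (SE 0.077, adjusted p = 7.5e-09) at 24 h, which became -0.6 (SE 0.24, adjusted p = 0.085) with the set term. The level of NHP2 is uncertain as far as it shares words with other genes. NOP10 rose at 24 h, by 0.32 (SE 0.11, adjusted p = 0.011) with NCP26 and 0.37 (SE 0.11, adjusted p = 0.0079) with HFG. These were 0.89 (SE 0.29, adjusted p = 0.034) and 0.94 (SE 0.29, adjusted p = 0.021) with the set term. GAR1 did not pass the test in any of the 8 comparisons of NCP26 or HFG with DMSO, with log2 fold changes of -0.35 to 0.22.

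All 3 nucleolar phosphoproteins and scaffolds fell in AMO1 with NCP26 at both times and with HFG at 6 h. NCL encodes nucleolin, an abundant RNA-binding protein of the nucleolus. It was at 1504, 1629.9 and 1569 CPM with DMSO at 6 h, 822, 974 and 899 with NCP26 and 900.4, 815 and 846 with HFG. After 24 h it stood at 1182, 1171 and 1215 CPM with DMSO, 659, 681 and 635 with NCP26 and 774, 778 and 731 with HFG. Treated and control libraries did not overlap at either time. The NCL log2 fold change was -0.8 (SE 0.1, adjusted p = 8.9e-05) with NCP26 at 6 h and -0.86 (SE 0.039, adjusted p = 5.4e-18) at 24 h, and -0.67 (SE 0.18, adjusted p = 0.014) with the set term. With HFG it was -0.84 (SE 0.057, adjusted p = 1.2e-08) at 6 h and -0.65 (SE 0.041, adjusted p = 1.9e-10) at 24 h, and the latter lost its call with the set term (-0.46, SE 0.18, adjusted p = 0.065).

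NPM1, the nucleolar chaperone nucleophosmin, was at 2227, 2477 and 2305 CPM with DMSO at 6 h, 1868, 1866 and 1609 with NCP26 and 1785, 1591 and 1637 with HFG. By 24 h its level was 2074, 1941 and 2045 CPM, 1272, 1263 and 1262 and 1889, 1778 and 1977, in the same order. NCP26 libraries stood apart below the controls at both times. The log2 fold change with NCP26 was -0.38 (SE 0.1, adjusted p = 0.011) at 6 h and -0.68 (SE 0.036, adjusted p = 2.1e-16) at 24 h. With HFG it was -0.45 (SE 0.056, adjusted p = 7.6e-06) at 6 h and -0.1 (SE 0.04, adjusted p = 0.033) at 24 h. The set term took the 24 h values to -0.26 (SE 0.27, adjusted p = 0.53) and 0.31 (SE 0.27, adjusted p = 0.42). NOLC1, a chaperone of snoRNPs, was at 348, 334 and 312 CPM with DMSO at 6 h, 196, 222 and 215 with NCP26 and 209.9, 212 and 200 with HFG. At 24 h it was at 171, 163 and 189 CPM with DMSO, 105, 107 and 98.7 with NCP26 and 181, 167 and 164 with HFG, where only the NCP26 libraries were clear of the controls. The NOLC1 log2 fold change was -0.76 (SE 0.069, adjusted p = 6.3e-11) with NCP26 at 24 h and -0.04 (SE 0.071, adjusted p = 0.65) with HFG, and the NCP26 value was -0.51 (SE 0.17, adjusted p = 0.046) with the set term.

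PES1 and WDR12 belong to the PeBoW complex, which acts in maturation of the 60S subunit. PES1 was at 157, 145 and 130.1 CPM with DMSO at 6 h, 62.7, 88.9 and 85.2 with NCP26 and 86.7, 89.2 and 81.9 with HFG, and at 24 h at 83.3, 95.7 and 103, 57, 58.1 and 65 and 73.2, 84 and 75.9 in that order. NCP26 libraries lay below the controls at both times. The PES1 log2 fold change was -0.85 (SE 0.13, adjusted p = 0.00034) at 6 h and -0.67 (SE 0.086, adjusted p = 8.3e-08) at 24 h with NCP26, and -0.71 (SE 0.086, adjusted p = 5.3e-06) and -0.28 (SE 0.088, adjusted p = 0.01) with HFG. Both 24 h calls of PES1 were lost with the set term, at -0.51 (SE 0.22, adjusted p = 0.11) with NCP26 and -0.14 (SE 0.22, adjusted p = 0.68) with HFG. WDR12 fell by 0.52 (SE 0.1, adjusted p = 0.0016) on the log2 scale with NCP26 at 6 h. With CFZ at 6 h WDR12 was at 58.5, 64.6 and 59.6 CPM against 79.3, 82.6 and 87.5 with DMSO, a log2 fold change of -0.45 (SE 0.093, adjusted p = 0.00079).

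Of the 8 other 60S factors, 5 fell with NCP26 at 6 h, 4 at 24 h and 5 with HFG at 6 h, and none rose in these 3 comparisons, where 19.2%, 30.9% and 26.6% of all genes were lower. RRP1B, a nucleolar protein related to RRP1, was at 105, 119.7 and 134 CPM with DMSO at 6 h, 53.7, 71 and 65 with NCP26 and 56, 60.4 and 64.4 with HFG. In the 24 h libraries it was at 93.5, 77.5 and 86.2 CPM with DMSO, 52.3, 51.2 and 52.2 with NCP26 and 69.3, 54.6 and 58.7 with HFG. No treated library reached the controls. The RRP1B log2 fold change was -0.91 (SE 0.13, adjusted p = 0.00019) with NCP26 at 6 h and -0.94 (SE 0.1, adjusted p = 1.4e-06) with HFG, the second largest of the members in each case, and at 24 h it was -0.72 (SE 0.087, adjusted p = 2.5e-08) and -0.5 (SE 0.1, adjusted p = 3e-04).

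NOP2 methylates a cytosine of the large ribosomal RNA. It was at 126, 122 and 99.2 CPM with DMSO at 6 h, 82.7, 63.9 and 60.2 with NCP26 and 74.1, 81.2 and 69.1 with HFG. After 24 h it was at 67.1, 63.1 and 68.4 CPM with DMSO, 42.9, 36.9 and 42.5 with NCP26 and 59.7, 60 and 57.7 with HFG. The treated libraries lay below the controls, those of HFG at 24 h by the least. The log2 fold change was -0.75 (SE 0.14, adjusted p = 0.0011) with NCP26 at 6 h, -0.7 (SE 0.093, adjusted p = 1.3e-07) at 24 h and -0.17 (SE 0.088, adjusted p = 0.11) with HFG at 24 h. The share of words in common with other genes was highest for NOP2. NOP16 had the largest 60S change at 24 h with NCP26, -1.08 (SE 0.14, adjusted p = 1.3e-07), or -0.72 (SE 0.31, adjusted p = 0.11) with the set term, while with HFG it was -0.05 (SE 0.13, adjusted p = 0.78). RRS1 rose with HFG at 24 h by 0.63 (SE 0.11, adjusted p = 0.00011) on the log2 scale, to 40, 44.3 and 42.4 CPM from 28.6, 25.5 and 28.1. The HFG libraries were all above the controls. RRP1 did not pass the test with NCP26 or HFG in AMO1, with log2 fold changes of -0.2 with NCP26 and -0.17 with HFG at 6 h.

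Among the 12 factors of the 40S subunit and the small subunit processome, NCP26 lowered 5 and raised 1 at 6 h, and lowered 7 and raised 0 at 24 h. HFG lowered 6 and raised 1 at 6 h. The same shares of all genes apply to these counts. The member raised at 6 h was UTP15 with both agents, at 0.41 and 0.34 on the log2 scale, and its NCP26 call was lost without NCP26 replicate 1 (0.31 (SE 0.12, adjusted p = 0.05)). NAT10, which acetylates cytosines of ribosomal RNA, had log2 fold changes of -0.63 (SE 0.11, adjusted p = 0.00095) with NCP26 and -0.8 (SE 0.11, adjusted p = 2.2e-05) with HFG at 6 h. At 24 h these were -0.74 (SE 0.088, adjusted p = 1.5e-08) and -0.44 (SE 0.084, adjusted p = 0.00022), and the HFG call was lost with the set term (-0.46 (SE 0.18, adjusted p = 0.067)). NOB1, the endonuclease that trims the small ribosomal RNA at its end, fell in all 4 comparisons, from -0.34 with NCP26 at 6 h to -0.64 with HFG at 24 h, but with the set term the 24 h value with NCP26 was -0.47 (SE 0.17, adjusted p = 0.06).

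UTP20, a very large processome protein, was at 40, 35.3 and 49.3 CPM with DMSO at 6 h, 37.6, 41.7 and 49.8 with NCP26 and 41.8, 42.5 and 49.9 with HFG. At 24 h it was at 34.5, 33.3 and 30.7 CPM with DMSO, 23.5, 18.9 and 23.4 with NCP26 and 23.1, 33.9 and 29.2 with HFG. NCP26 and DMSO libraries overlapped at 6 h and were apart at 24 h. The log2 fold change with NCP26 was 0.06 (SE 0.15, adjusted p = 0.77) at 6 h and -0.57 (SE 0.13, adjusted p = 0.00034) at 24 h, and -0.95 (SE 0.26, adjusted p = 0.015) with the set term. HEATR1, the human counterpart of yeast Utp10, links the processome to RNA polymerase I transcription. It was at 110.4, 93.8 and 111 CPM with DMSO at 6 h, 73.7, 103 and 116 with NCP26 and 101, 92.7 and 87.7 with HFG, with overlap. The 24 h libraries held it at 86.6, 76.5 and 85.4 CPM with DMSO, 75.4, 93.6 and 82.3 with NCP26 and 86.2, 118 and 103 with HFG, and 1 of the HFG libraries lay among the controls. The HEATR1 log2 fold change at 24 h was 0.01 (SE 0.083, adjusted p = 0.89) with NCP26 and 0.32 (SE 0.094, adjusted p = 0.0066) with HFG, which became 0.27 (SE 0.21, adjusted p = 0.36) with the set term. WDR75 passed the test in none of the 8 comparisons of NCP26 or HFG with DMSO in either line.

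Of the 4 RNA polymerase I subunits, 2 fell with NCP26 at each time and 3 with HFG at 6 h, beside the same shares of all genes. POLR1A, which holds the catalytic centre, was at 133, 111 and 114 CPM with DMSO at 6 h, 69.7, 74.1 and 108 with NCP26 and 74.1, 104 and 104 with HFG, without overlap. At 24 h it was at 71.2, 65.7 and 80.4 CPM, 62.3, 59 and 71 and 59.7, 69.1 and 65 in the same order, with NCP26 and DMSO overlapping. The POLR1A log2 fold change was -0.5 (SE 0.15, adjusted p = 0.02) with NCP26 at 6 h, -0.29 (SE 0.11, adjusted p = 0.043) with HFG at 6 h and -0.19 (SE 0.091, adjusted p = 0.078) with NCP26 at 24 h. POLR1B, the second largest subunit, was at 56.9, 56.3 and 60.2 CPM with DMSO at 6 h, 51.3, 50 and 51.4 with NCP26 and 50.7, 45.9 and 50.7 with HFG. In the 24 h libraries it stood at 42.2, 45.6 and 43.7 CPM with DMSO, 34.4, 33.3 and 36.4 with NCP26 and 42.2, 52.2 and 49.4 with HFG, and the NCP26 libraries were below all controls. Its log2 fold change was -0.34 (SE 0.1, adjusted p = 0.0046) with NCP26 at 24 h. POLR1C, which RNA polymerase III also uses, fell by 0.68 (SE 0.16, adjusted p = 0.0066) on the log2 scale with NCP26 at 6 h. POLR1E fell with HFG at 6 h only, by 0.38 (SE 0.15, adjusted p = 0.044) on the log2 scale.

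The largest change of any member was in MYBBP1A, a nucleolar protein that binds transcription factors and represses RNA polymerase I. It was at 134, 133 and 103 CPM with DMSO at 6 h, 35.7, 39.8 and 52.4 with NCP26 and 36.8, 44.1 and 35.7 with HFG. By 24 h it was at 65.7, 56.9 and 68.6 CPM with DMSO, 24.1, 25.4 and 27.3 with NCP26 and 36, 33.5 and 38.8 with HFG. Each treated library lay below every control at its time. This gave a log2 fold change of -1.52 (SE 0.15, adjusted p = 1.5e-05) with NCP26 at 6 h, -1.32 (SE 0.11, adjusted p = 7.1e-12) with NCP26 at 24 h, -1.64 (SE 0.12, adjusted p = 1.7e-08) with HFG at 6 h and -0.81 (SE 0.11, adjusted p = 3.7e-06) with HFG at 24 h. The calls at 24 h held with the set term, at -1.59 (SE 0.25, adjusted p = 0.00026) and -1.09 (SE 0.25, adjusted p = 0.0035). GNL3, the nucleolar GTPase nucleostemin, fell with NCP26 by 0.89 (SE 0.12, adjusted p = 0.00013) at 6 h and 1 (SE 0.09, adjusted p = 4.8e-11) at 24 h on the log2 scale, and the latter was -0.71 (SE 0.27, adjusted p = 0.069) with the set term. DDX21, a nucleolar RNA helicase, rose with HFG at both times, with log2 fold changes of 0.23 (SE 0.075, adjusted p = 0.016) and 0.75 (SE 0.056, adjusted p = 1.9e-09), and with NCP26 at 24 h, by 0.36 (SE 0.054, adjusted p = 1.4e-06). The 3 regulators did not share a direction, and the E-box was found in a promoter window of each.

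**Figure D4:**
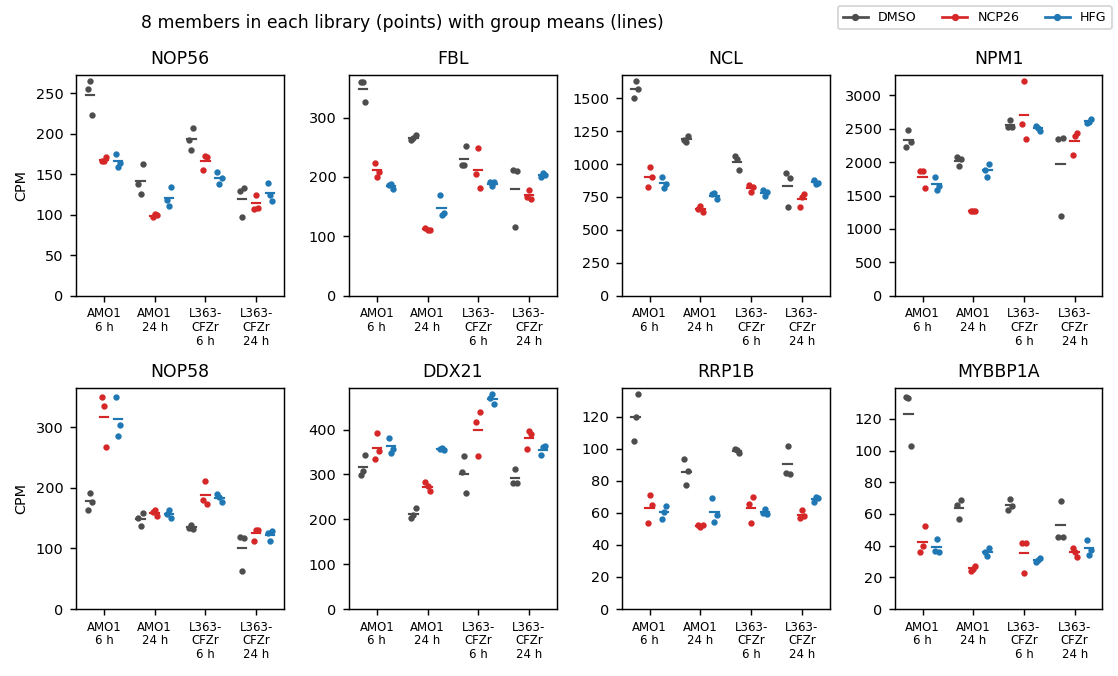
Level in CPM (vertical axes) of NOP56, FBL, NCL, NPM1, NOP58, DDX21, RRP1B and MYBBP1A in each library (points) with group means (lines) for DMSO, NCP26 and HFG, by line and time. MYBBP1A in AMO1 at 6 h stood at 134, 133 and 103 CPM with DMSO and at 35.7, 39.8 and 52.4 CPM with NCP26.

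NCP26 and HFG were then set against each other at the same dose and time, without DMSO in the fit. This was done for 12 pairs of compounds in all, each adjusted over all genes tested in it. At 6 h in AMO1 no member differed in edgeR, where 0.260% of all genes did. At an unadjusted p under 0.05 there were 2 members beside 13.2% of all genes, and DESeq2 called 0, as did edgeR without NCP26 replicate 1. The intervals of the differences (1.96 SE to each side) lay between -0.52 and 0.67 over the 39 members, for example -0.15 to 0.18 for NOP56 and -0.15 to 0.43 for MYBBP1A. At 24 h 26 members were lower with NCP26 than with HFG and 0 higher (median difference -0.39), where 22.4% of all genes were lower. Among other ribosome biogenesis genes 52 of 130 were lower and 12 higher. These libraries lie in the same set. In the fit with the set term, which takes in all groups of the time, 19 were lower and 0 higher, with 33.5% of all genes called.

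NOP16, a 60S factor, led the 24 h difference, at 21.3, 15.7 and 14 CPM with NCP26 and 41.7, 33.5 and 31.2 CPM with HFG. NHP2 followed, at 78.3, 78.3 and 78 CPM with NCP26 and 139, 130 and 131 CPM with HFG. Neither gene had overlapping groups. The log2 difference was -1.05 (SE 0.17, adjusted p = 6.9e-05) for NOP16 and -0.78 (SE 0.07, adjusted p = 5.6e-08) for NHP2. GNL3 (-0.77), NOLC1 (-0.73), DKC1 (-0.62) and NPM1 (-0.59) were also lower with NCP26, and so was FBL (-0.41), which both agents lowered against DMSO. NOP58, POLR1A and NOB1 did not pass the test, with intervals of -0.12 to 0.13, -0.22 to 0.16 and -0.1 to 0.24.

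The change of each effect between 6 h and 24 h was tested as an interaction over 12 libraries. For HFG in AMO1, 23 members had a more positive effect at 24 h and 1, NOP58, a more negative one (median difference 0.4), beside 18.5% and 21% of all genes. The HFG effect at 24 h was nearer 0 than at 6 h for 29 of 39 members, a count that was not made over all genes. MYBBP1A had the largest difference, 0.86 (SE 0.17, adjusted p = 0.00052), followed by DKC1, 0.83 (SE 0.11, adjusted p = 8.7e-06). With the set term 23 became 12 members with a more positive effect, beside 20% of all genes called, and MYBBP1A was 0.57 (SE 0.32, adjusted p = 0.19) while DKC1 was 1.12 (SE 0.19, adjusted p = 2e-05). For NCP26, 4 members had a more negative effect at 24 h and none a more positive one, beside 10.1% of all genes. These were NOP58 (-0.76, SE 0.14, adjusted p = 0.00089), UTP20 (-0.65, SE 0.2, adjusted p = 0.03), UTP15 and FBL. Without NCP26 6 h replicate 1, 5 were more negative and 1 more positive, with 20.8% of all genes called. With the set term 2 members were called, UTP20 and RRS1, beside 6.10% of all genes, and NOP58 became -0.39 (SE 0.27, adjusted p = 0.44). Sample storage differed between the times, and its part was not tested.

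**Figure D5:**
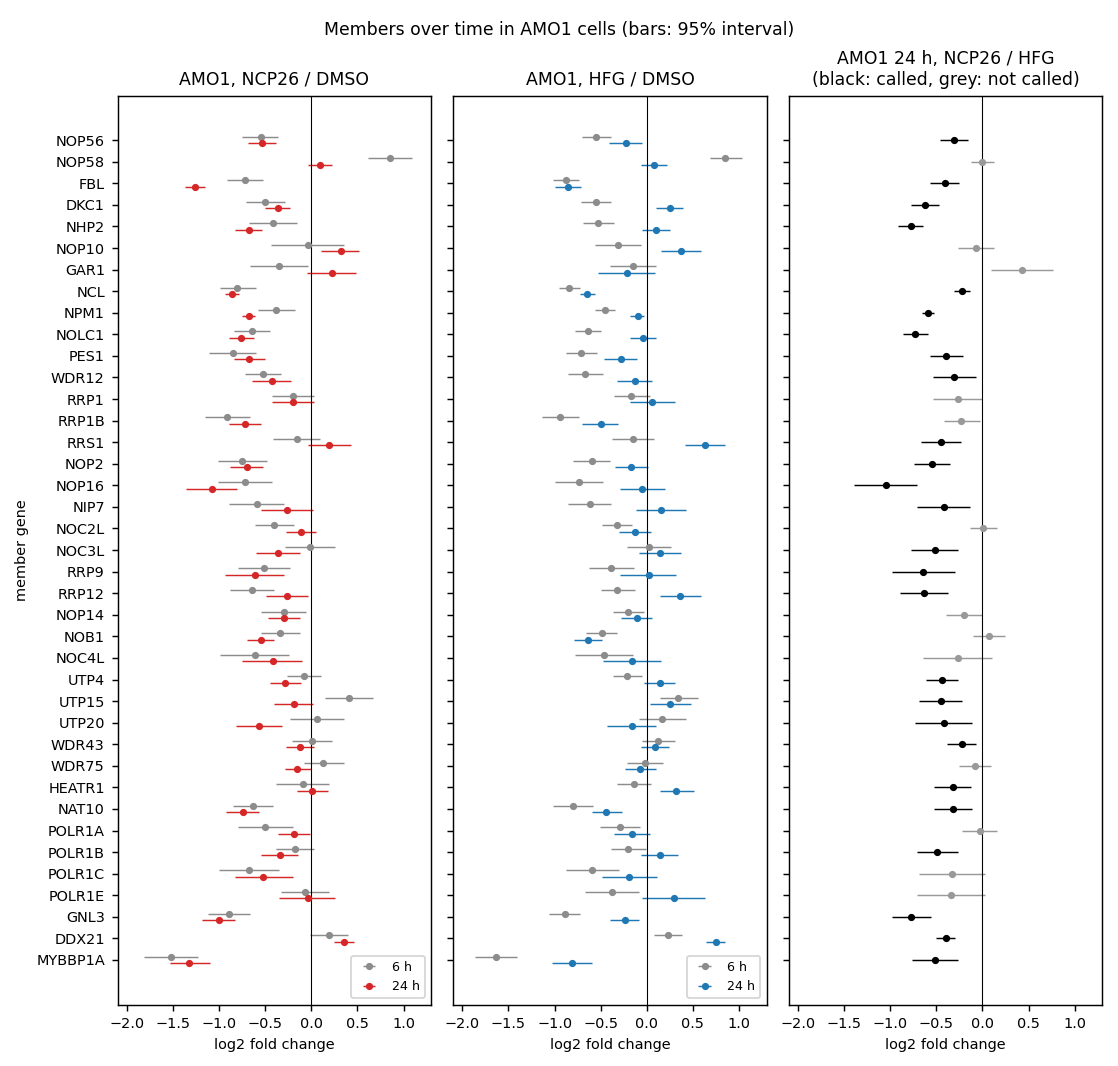
Log2 fold change (horizontal axis, bars 1.96 SE) of the 39 members in AMO1 for NCP26 against DMSO, HFG against DMSO (grey 6 h, coloured 24 h) and NCP26 against HFG at 24 h (black where the adjusted p was under 0.05). At 24 h the HFG points moved towards 0 for 29 members, which was not counted over all genes. In NCP26 against HFG 26 members lay below 0 with an adjusted p under 0.05, beside 22.4% of all genes.

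CFZ, which blocks protein breakdown by the proteasome, was measured in AMO1 at both times. At 6 h 6 members fell and 3 rose (median -0.03), beside 12.8% and 14.1% of all genes. NOP58, RRP12 and NPM1 were the members that rose, and WDR12, POLR1A and RRP9 were among those that fell. At 24 h 5 rose and 1, NOB1, fell (median 0.16), beside 13.1% and 14%. Without CFZ replicate 2, 18 rose and 3 fell, where 48.2% of all genes were called, and without DMSO replicate 1, 2 or 3 the members called were 3, 2 and 3 (15.7%, 14.2% and 14.8% of all genes). The set term gave 8 higher and 1 lower, with 25.8% called. RRP12, a HEAT-repeat protein of 40S maturation and export, was at 33, 37.6 and 37.3 CPM with DMSO and 73.9, 105 and 70.4 with CFZ at 24 h, without overlap. Its log2 fold change was 1.23 (SE 0.18, adjusted p = 0.002), and 1 (SE 0.11, adjusted p = 2.1e-07) without replicate 2. HEATR1 was at 119.8, 138 and 111 CPM with CFZ, above the controls, with 0.59 (SE 0.13, adjusted p = 0.01), and 0.49 (SE 0.087, adjusted p = 0.00011) without replicate 2. The POLR1A log2 fold change of 0.67 (SE 0.33, adjusted p = 0.17) became 0.11 (SE 0.1, adjusted p = 0.42). The CFZ effect differed between the times for 5 members, 4 more positive and 1 more negative, beside 8.05% and 11.6% of all genes. RRP12 had 0.79 (SE 0.2, adjusted p = 0.014) and NOB1 -0.69 (SE 0.15, adjusted p = 0.0059). Without replicate 2 this was 13 and 2 members, with 30.6% of all genes called. The count was 8 members without CFZ 24 h replicate 3, with 21.9% of all genes called. It was 2 and 3 without CFZ 6 h replicate 1 or 3, and 3 and 2 without DMSO 24 h replicate 1 or 2. Without DMSO 6 h replicate 3 it was 2. In these fits with 2 or 3 members, 13.5% to 16.7% of all genes were called. With the set term 8 members were called, beside 16.5% of all genes.

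NCP22 and halofuginol were compared with DMSO in the same way. In AMO1 at 6 h NCP22 lowered 12 members and raised 0 (median -0.21), where 6.08% of all genes were lower. The count was 4 and 5 without DMSO replicate 1 or 2 and 6 without NCP22 replicate 2 or 3, with 4.78% to 9.27% of all genes called. These fold changes ran with transcript GC content, with Pearson's r of -0.5 across all genes and -0.74 across the 39 members. With an offset for GC content 10 members were lower and 0 higher, beside 3% of all genes lower. MYBBP1A was at 76.3, 90.8 and 84 CPM with NCP22, below the 3 controls, with a log2 fold change of -0.55 (SE 0.098, adjusted p = 0.00098). RRP9, a protein specific to the U3 snoRNP, was at 33.2, 24.7 and 28.3 CPM against 48.3, 40.6 and 38.3 with DMSO, a log2 fold change of -0.55 (SE 0.13, adjusted p = 0.008). At 24 h NCP22 changed no member, with 0% of all genes called, and 5 members were lower at an unadjusted p under 0.05, beside 5.92% of all genes. Halofuginol changed no member at 6 h (3.62% of all genes called) or 24 h (0.183%). Without DMSO replicate 3, however, 9 members were lower at 6 h, with 13.1% of all genes called, and 1 was without DMSO replicate 1 (1.62%). The 6 h count was 1 with the offset for GC content and 2 without a filter on low counts. At an unadjusted p under 0.05, 13 members were lower at 6 h, beside 19.3% of all genes, and 20 at 24 h, beside 10.3%. DESeq2 called no member in these 3 comparisons. The members' intervals lay between -0.55 and 0.38 for halofuginol at 6 h and between -0.68 and 0.34 for NCP22 at 24 h.

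In L363-CFZr, NCP22 changed no member at 6 h or at 24 h, with 0% and 0% of all genes called. At an unadjusted p under 0.05 there were 6 members at 6 h, beside 6.51% of all genes, and 1 at 24 h, beside 1.99%. Halofuginol at 24 h also changed none (0% of all genes called, and 2 members at an unadjusted p under 0.05 beside 3.89%). DESeq2 called 0 members in these 3 comparisons, and the members' intervals at 24 h lay between -1.49 and 0.97 for NCP22 and between -1.6 and 1.19 for halofuginol. At 6 h halofuginol raised 12 members and lowered 1, POLR1A, beside 13.6% and 12.2% of all genes. Without halofuginol replicate 2 it raised 7 and lowered 0, with 14.2% of all genes called. NOC3L, a 60S factor, was at 45.6, 48.3 and 44.3 CPM against 32.6, 38.9 and 31.4 with DMSO, and DDX21 at 389, 403 and 407 against 306, 341 and 258, both without overlap. In log2 terms the change was 0.45 (SE 0.11, adjusted p = 0.0047) for NOC3L and 0.41 (SE 0.074, adjusted p = 0.00097) for DDX21. The fold changes of this comparison ran with transcript GC content, with Pearson's r of -0.7 across all genes and -0.73 across the 39 members, which are not independent replicates. With an offset for GC content 4 members were higher and 1 lower (2.40% of all genes called), and NOC3L was 0.16 (SE 0.094, adjusted p = 0.41). The groups also lie in different library sets, and with the set term only NOP58 was called (3.50% of all genes).

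The pairs of related compounds were compared directly. NCP26 against NCP22 in AMO1 had 12 members lower and 2 higher at 6 h, beside 12.2% and 12.6% of all genes, and 17 lower and 6 higher at 24 h, beside 25.7% and 26.3%. At 6 h, 14 were lower and 3 higher without NCP26 replicate 1 (30.3% of all genes called). Without NCP22 replicate 1 or 2, 9 and 8 members were called (14.7% and 14.1% of all genes). MYBBP1A led at 6 h, at 35.7, 39.8 and 52.4 CPM with NCP26 against 76.3, 90.8 and 84 with NCP22, a log2 difference of -0.94 (SE 0.13, adjusted p = 0.00045). NOP58 was higher with NCP26, by 0.84 (SE 0.11, adjusted p = 0.00023). FBL led at 24 h, at 114, 110.2 and 111 CPM against 238, 274 and 269.8, a log2 difference of -1.21 (SE 0.073, adjusted p = 1.8e-08), and MYBBP1A was at -1.04 (SE 0.12, adjusted p = 9.7e-06). NCP26 libraries lay apart from NCP22 libraries in each of these cases. POLR1A did not pass the test in AMO1, with intervals of -0.37 to 0.19 at 6 h and -0.43 to 0.1 at 24 h.

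HFG against halofuginol in AMO1 had 21 members lower and 3 higher at 6 h, beside 26.1% and 25.6% of all genes. At 24 h the balance had turned, with 7 lower and 14 higher, beside 28.7% and 27.9%, and with the set term, in the fit of all groups, with 4 lower and 10 higher (48.9% of all genes called). At 6 h MYBBP1A was at 36.8, 44.1 and 35.7 CPM with HFG and 105, 92.3 and 97.7 with halofuginol, a log2 difference of -1.32 (SE 0.094, adjusted p = 4.5e-09). GNL3 was at 114, 106 and 103 CPM against 201, 203 and 186, a difference of -0.86 (SE 0.065, adjusted p = 9.6e-09). At 24 h DDX21 was higher with HFG, at 356, 358 and 355 CPM against 197, 176 and 187, by 0.96 (SE 0.067, adjusted p = 1.1e-09). FBL was lower with HFG by 0.88 (SE 0.1, adjusted p = 9e-07) on the log2 scale. The groups did not overlap for any of these 4 genes.

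In L363-CFZr, NCP26 against NCP22 at 6 h had 12 members lower and 1, NOP58, higher, beside 10.4% and 9.96% of all genes. Without NCP26 replicate 2 this was 19 lower and 3 higher, with 33.6% of all genes called, whereas 8 and 5 members were called without NCP22 replicate 1 or 3 (10.8% and 7.97% of all genes). POLR1A had the largest difference, -1.2 (SE 0.24, adjusted p = 0.0053), which became -0.97 (SE 0.15, adjusted p = 0.00012) without that library, and MYBBP1A went from -1.04 (SE 0.21, adjusted p = 0.0061) to -0.8 (SE 0.12, adjusted p = 6.2e-05). At 24 h 11 members were lower and 2 higher, beside 17.9% and 16.2%. NOP16 was at 24.4, 27.6 and 32.3 CPM with NCP26 and 51.4, 41.1 and 51.8 with NCP22, a log2 difference of -0.78 (SE 0.13, adjusted p = 0.00055), and NHP2 at 118, 118 and 132 against 199.7, 185 and 185, -0.63 (SE 0.085, adjusted p = 7e-05). Both were without overlap.

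HFG against halofuginol in L363-CFZr, which lie in the same library set, had 30 members lower and 2 higher at 6 h, beside 24.2% and 23.1% of all genes. This was the highest count of lower members among the 12 pairs. MYBBP1A was at 29.7, 30.7 and 32.3 CPM with HFG and 54.4, 60.4 and 52.9 with halofuginol, and RRP1B at 59.8, 62.7 and 59.5 and 104, 105 and 102, with no overlap. The log2 difference was -0.83 (SE 0.09, adjusted p = 9.8e-09) for MYBBP1A and -0.75 (SE 0.065, adjusted p = 1.1e-10) for RRP1B. At 24 h 4 were lower and 2 higher, beside 12.3% and 9.59%, led by NOP16 (-0.49, SE 0.11, adjusted p = 0.0039) and DDX21 (0.33, SE 0.06, adjusted p = 0.00094). NCP26 against HFG called no member at 6 h in edgeR or DESeq2, with 0% of all genes called. At an unadjusted p under 0.05 there were 3 members beside 11.1% of all genes, and the members' intervals lay between -0.65 and 0.59. At 24 h 8 members were lower with NCP26, beside 7.43% of all genes. Without HFG replicate 1, 2 or 3 these were 3, 2 and 2, where 8.25%, 5.98% and 5.56% of all genes were called. Without NCP26 replicate 2 there were 4, with 9.09% of all genes called. NOP16 and NHP2 led here too, at -0.5 (SE 0.12, adjusted p = 0.015) and -0.47 (SE 0.078, adjusted p = 0.0018).

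In the carfilzomib-resistant line both inhibitors changed members at 6 h. HFG lowered 22 of 39 and raised 3 (median -0.29), beside 27.5% and 26.9% of all genes, and NCP26 lowered 8 and raised 2 (median -0.2), beside 8.99% and 9.81%. Without NCP26 replicate 2 the NCP26 counts were 18 lower and 3 higher, with 36.7% of all genes called, but without DMSO replicate 1, 2 or 3 only 4, 4 and 3 members were called (8.18%, 11.8% and 6.97% of all genes). With the set term the NCP26 counts were 17 lower and 3 higher, with 31.6%, and the HFG counts were 11 lower and 3 higher, with 24.7%. NCP26 and DMSO share a set at 6 h, so for NCP26 that fit differs by taking in all groups of the line and time. NCP22 replicate 3 alone ties the sets at 6 h, so the HFG counts of that fit rest on it. The HFG fold changes ran with transcript GC content, with Pearson's r of -0.56 across all genes and -0.68 across the members. With an offset for GC content HFG lowered 20 and raised 2, with 38.5% of all genes called. For NCP26 Pearson's r was -0.36 across all genes and -0.48 across the members. With the offset NCP26 lowered 7 and raised 0, with 12.5% of all genes called. Of 130 other ribosome biogenesis genes 44 were lower and 30 higher with HFG, and 21 and 10 with NCP26. MYBBP1A again led, at 62.5, 69.2 and 64.7 CPM with DMSO, 41.6, 22.8 and 41.6 with NCP26 and 29.7, 30.7 and 32.3 with HFG, without overlap. Its log2 fold change was -1.05 (SE 0.1, adjusted p = 9.3e-09) with HFG and -0.86 (SE 0.2, adjusted p = 0.014) with NCP26, and -0.62 (SE 0.11, adjusted p = 0.00033) without NCP26 replicate 2. NOP2 was at 121, 124 and 128 CPM with DMSO, 76.3, 67.7 and 83.6 with NCP26 and 69.3, 69.6 and 71.7 with HFG, and the log2 fold change was -0.69 (SE 0.11, adjusted p = 0.0022) and -0.79 (SE 0.075, adjusted p = 7.1e-09). POLR1A was at 87.8, 86.2 and 85.3 CPM with DMSO and had -0.81 (SE 0.19, adjusted p = 0.017) with NCP26, or -0.57 (SE 0.096, adjusted p = 0.00032) without replicate 2.

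Members of the snoRNPs, the scaffolds and PeBoW are given next for L363-CFZr at 6 h, and the tests of differences from AMO1 follow below. FBL was at 219.7, 219.5 and 253 CPM with DMSO, 205, 249 and 182 with NCP26 and 191, 185 and 192 with HFG, and the log2 fold change was -0.1 (SE 0.12, adjusted p = 0.6) and -0.26 (SE 0.066, adjusted p = 0.0021), the latter -0.36 (SE 0.16, adjusted p = 0.1) with the set term. NPM1 was at 2522, 2639 and 2528 CPM with DMSO, 2573, 3213 and 2352 with NCP26 and 2547, 2508 and 2462 with HFG. The HFG libraries overlapped the controls, with a log2 fold change of 0 (SE 0.04, adjusted p = 0.99). DKC1 was at 202, 206 and 198 CPM with DMSO and 218, 211 and 215 with HFG, all above the controls, and did not pass the test (0.12, SE 0.061, adjusted p = 0.099). NCL was at 1058, 1036 and 953 CPM with DMSO, 841, 785 and 828 with NCP26 and 801, 757 and 786 with HFG, and only HFG passed the test, -0.34 (SE 0.053, adjusted p = 7.7e-06). In the fit of all groups with the set term the NCL values were -0.3 (SE 0.065, adjusted p = 0.0019) with NCP26, which shares the set of DMSO. With HFG the value was -0.15 (SE 0.12, adjusted p = 0.37), so that in that fit NCP26 passed and HFG did not. NOP56 was at 193, 180.3 and 207 CPM with DMSO and 153, 138 and 145 with HFG, and fell by 0.38 (SE 0.069, adjusted p = 6.4e-05) on the log2 scale, or had -0.27 (SE 0.13, adjusted p = 0.13) with the set term. NOLC1 and PES1 fell with both agents, by 0.37 and 0.37 on the log2 scale with NCP26 and by 0.37 and 0.5 with HFG, and PES1 with HFG was -0.36 (SE 0.14, adjusted p = 0.079) with the set term.

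At 24 h in L363-CFZr the result turned on a single control library. With all 3 controls NCP26 lowered 1 member, RRP1B, and raised 0, beside 4.38% of all genes lower. HFG changed none, with 1.17% of all genes called, and 3 members at an unadjusted p under 0.05 beside 16.6%. DESeq2 called 0 members for HFG. Without DMSO replicate 2, NCP26 lowered 11 and raised 2 (28.6% of all genes called). Leaving out any other library of that comparison left 0 members, with 1.04% to 2.68% of all genes called. Without the same library HFG raised 3 and lowered 1 (19.5%). RRP1B was at 85.2, 102 and 84.4 CPM with DMSO and 56.7, 61.7 and 58 with NCP26, and every NCP26 library was below the controls. Its log2 fold change was -0.61 (SE 0.13, adjusted p = 0.033), and -0.52 (SE 0.09, adjusted p = 0.0012) without that library. NOLC1 went from -0.52 (SE 0.13, adjusted p = 0.051) to -0.57 (SE 0.087, adjusted p = 0.00048) and NOP16 from -0.4 (SE 0.31, adjusted p = 0.5) to -0.69 (SE 0.13, adjusted p = 0.0024). FBL was at 212, 116 and 210 CPM with DMSO, 166, 178 and 163 with NCP26 and 200.4, 206 and 203 with HFG, and NPM1 at 2350.1, 1200.5 and 2370, 2109, 2394 and 2445 and 2585, 2605 and 2649.6. Replicate 2 of DMSO was the lowest library for both genes.

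The lines were also compared in DMSO, where a smaller share of members than of all genes was called. At 6 h this was 51.3% of members and 60.2% of all genes, and at 24 h 12.8% and 39.9%. In DMSO at 6 h, 14 members were lower and 6 higher in L363-CFZr than in AMO1, beside 31.3% and 28.9% of all genes. In the fit with the set term 4 were lower and 4 higher, with 34.5% of all genes called, and the median moved from -0.09 to 0.01. MYBBP1A was at 62.5, 69.2 and 64.7 CPM in L363-CFZr and 134, 133 and 103 in AMO1, and RRS1 at 71.1, 64.8 and 70.7 and 39, 37.4 and 33.7, without overlap. The log2 difference was -0.94 (SE 0.1, adjusted p = 1.6e-07) for MYBBP1A and 0.89 (SE 0.11, adjusted p = 6.4e-07) for RRS1. At 24 h 2 members were lower and 3 higher, beside 20.5% and 19.4%. Without L363-CFZr DMSO replicate 2 this was 9 lower and 14 higher, with 65% of all genes called. Without any 1 of the 3 AMO1 libraries 1 member was lower and 0 higher, with 26.4% to 27.5% called. NOB1 had the largest difference, -0.94 (SE 0.14, adjusted p = 0.0016), and RRP12 was higher by 0.63 (SE 0.15, adjusted p = 0.015), or 0.23 (SE 0.27, adjusted p = 0.6) with the set term. The 6 h libraries of the lines lie in different sets, and line and set cannot be told apart in DMSO.

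Differences of the drug effect between the lines were tested as interactions. For HFG at 6 h, 10 members had a more positive effect in L363-CFZr and 1, NOP58, a more negative one, beside 11.3% and 9.34% of all genes. WDR12 differed by 0.8 (SE 0.13, adjusted p = 1e-04) and DKC1 by 0.68 (SE 0.096, adjusted p = 2.9e-05), and FBL, NCL, NPM1, NOLC1, WDR43, GNL3, DDX21 and MYBBP1A made up the rest. With the set term 3 members were called, beside 6.67% of all genes, WDR12 at 0.95 (SE 0.19, adjusted p = 0.00047) and DKC1 at 0.69 (SE 0.18, adjusted p = 0.012) among them. For NCP26 at 6 h, 2 members differed, GNL3 by 0.62 (SE 0.15, adjusted p = 0.03) and DKC1 by 0.54 (SE 0.13, adjusted p = 0.042), beside 1.96% of all genes with a more positive effect. Of the 12 fits without 1 library, 5 called GNL3 and 3 DKC1, with adjusted p up to 0.11 and 0.14. The count was 1 without AMO1 NCP26 replicate 1 (2.55% of all genes called) and 4 without L363-CFZr NCP26 replicate 2 (3.61%). The set term gave 6 members, beside 6.44% of all genes. At 24 h 4 members had a more positive NCP26 effect in L363-CFZr, beside 2.97% of all genes. These were FBL (1.15, SE 0.25, adjusted p = 0.02), GNL3 (1.01, SE 0.25, adjusted p = 0.034), NCL and NOB1. No member was called without AMO1 DMSO replicate 1, 2 or 3, AMO1 NCP26 replicate 1 or 2, or L363-CFZr NCP26 replicate 2, with 2.47% to 2.78% of all genes called, and with a replicate block the count was also 0. Of the 12 fits without 1 library, 5 called FBL and 4 GNL3, with differences of 0.92 to 1.29 and 0.81 to 1.16 over all 12. With the set term 3 members were called, beside 4.73% of all genes, and FBL was 0.95 (SE 0.27, adjusted p = 0.029) while GNL3 was 0.73 (SE 0.25, adjusted p = 0.091).

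Without L363-CFZr DMSO replicate 2, the 24 h NCP26 effect differed between the lines for 9 members upward and 1 downward, with 21.1% of all genes called. FBL then differed by 0.92 (SE 0.087, adjusted p = 3.4e-07) and GNL3 by 0.81 (SE 0.14, adjusted p = 0.00035). For HFG at 24 h 3 members had a more positive effect in L363-CFZr and 1, DDX21, a more negative one, beside 8.06% and 8.82% of all genes. FBL differed by 1.02 (SE 0.25, adjusted p = 0.014) and NOB1 by 0.96 (SE 0.16, adjusted p = 0.0018), and NCL was the other. Without the same library there were 7 upward and 2 downward (33.4% of all genes called), with FBL at 0.81 (SE 0.093, adjusted p = 4e-07) and NOB1 at 0.86 (SE 0.13, adjusted p = 1.3e-05). The HFG difference of FBL was called in 12 of 12 fits without 1 library and was 0.82 (SE 0.27, adjusted p = 0.037) with the set term.

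Within L363-CFZr, the NCP26 effect differed between 6 h and 24 h for no member in edgeR or DESeq2, with 0.691% of all genes called. At an unadjusted p under 0.05 there was 1 member, beside 12% of all genes. Leaving out DMSO 24 h replicate 2 called 1 member (3.64% of all genes), and so did the set term (7.04%). The HFG effect was more positive at 24 h for 5 members, beside 4.75% of all genes, and more negative for 0. NOP2 (0.76, SE 0.13, adjusted p = 0.0052) and RRP1 (0.72, SE 0.19, adjusted p = 0.032) led, followed by PES1, NOB1 and NAT10. Without DMSO 24 h replicate 2 there were 20 upward and 2 downward (32.9% of all genes called), with NOP2 at 0.75 (SE 0.12, adjusted p = 2.5e-05) and RRP1 at 0.6 (SE 0.16, adjusted p = 0.0061). The count was 10 without DMSO 24 h replicate 1, with 15.6% of all genes called. It was 1 to 3 without DMSO 6 h replicate 1 or 3 or any HFG library of either time (4.13% to 6.36%). NOP2 was called in 12 and RRP1 in 4 of 12 fits without 1 library, and with the set term RRP1 was 0.64 (SE 0.23, adjusted p = 0.052).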

How the data were processed

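Poly(A) RNA of 66 libraries (NEBNext Ultra II directional) was sequenced. The authors deposited one table of whole-number read counts per gene with Ensembl identifiers. Their notes name kallisto and hg19, whereas their methods give GRCh38 with 31-base words, and no source used here gives the version, the annotation or the step from estimates to gene counts. Pseudo-alignment can divide reads between similar genes. Symbols were matched through GENCODE v44, with 39 of 40 members found, BOP1 not analysed here, and 0 sample columns left unused. From the deposited counts, genes were filtered (filterByExpr, minimum count 10, minimum total 15), scaled by TMM and tested with edgeR 4.0.16 (quasi-likelihood, R 4.3.3) in the compared groups only. SE is the absolute log2 fold change over the square root of F. The scripts were tested on simulated data.

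Members, roles and lists were chosen with earlier results of these data known. Values by library are given for NOP56, FBL, DKC1, NCL, NPM1, NOLC1, PES1, NOP2, UTP20, HEATR1, POLR1A and POLR1B, and for the 2 members with the largest changes among those called, without overlap where NCP26, HFG or CFZ was compared with DMSO. Other members were named for their role after their values were seen. Alternatives were DESeq2 1.42.0 (size factors, Wald test), no filter, all groups in a fit, a replicate block, leaving out each library, a GC offset (lowess, span 0.3) and a library set term. Of 66 replicate pairs 0 were identical (r 0.9382 to 0.9923).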

Additional observations from a re-analysis of the deposited data

Results flagged for a closer look

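Some members' responses differed between the lines or times by a test of the difference itself (edgeR's quasi-likelihood test of the interaction, adjusted over all genes). Between L363-CFZr and AMO1, the NCP26 effect differed for 2 of 39 members at 6 h (GNL3 and DKC1), beside 2.71% of all genes, and for 4 at 24 h (FBL, GNL3, NCL and NOB1), beside 5.41%. The HFG effect differed between the lines for 11 members at 6 h, of which 10 were more positive in L363-CFZr, beside 20.7% of all genes, and for 4 at 24 h, a lower share than the 16.9% of all genes. Between 6 h and 24 h in AMO1, the NCP26 effect differed for 4 members, all more negative at 24 h, a lower share than the 17.5% of all genes. The HFG effect differed for 24, of which 23 were more positive at 24 h, beside 39.6%, and the CFZ effect for 5, a lower share than the 19.6% of all genes. In L363-CFZr the HFG effect differed between the times for 5 members, all more positive at 24 h, a share near the 12.3% of all genes. The comparisons in L363-CFZr at 24 h rest in part on DMSO replicate 2, and the comparisons in AMO1 at 24 h cross the library sets. HFG against DMSO in L363-CFZr at 6 h crosses them too. With the set term the 6 h HFG effect differed between the lines for 3 members, beside 6.67% of all genes. The NCP26 differences between the lines lost their calls at both times when single libraries were left out, as given above.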

How the results depend on the processing

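The results are how many of the 39 members passed an adjusted p of 0.05 in each of the 41 comparisons. All 41 counts stayed within 1.5 times with the size factors of DESeq2 in place of TMM, 37 with the Wald test of DESeq2, 37 without a filter on low counts and 35 with an offset for GC content. The cause of the changes below was not tested. The share of all genes called also moved with the setting and is not given beside each count below. For AMO1 CFZ at 24 h it was 27% with all libraries and 48.2% without CFZ replicate 2. A moved count is therefore not by itself a result about the members.

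With DESeq2 the count was 3 for L363-CFZr NCP26/DMSO at 24 h, 2 for HFG/halofuginol at 24 h, 5 for NCP26/HFG at 24 h and 4 for the NCP26 effect between lines at 6 h. With the GC offset it was 1 for AMO1 halofuginol at 6 h, 2 for L363-CFZr NCP26 at 24 h, 5 for L363-CFZr halofuginol at 6 h, 4 for the NCP26 effect between lines at 6 h, 8 for the CFZ effect between times and 3 for the L363-CFZr HFG effect between times. Without a filter it was 2 and 1 for AMO1 halofuginol at 6 h and 24 h, 1 for L363-CFZr NCP22 at 6 h and 4 for the NCP26 effect between lines at 6 h. With all groups in a fit it was 5 and 19 for CFZ at 6 h and 24 h. In L363-CFZr that fit gave 10 for NCP26 and 4 for HFG at 24 h, 4 for halofuginol at 6 h, 2 for HFG/halofuginol and 2 for NCP26/HFG at 24 h. Between lines it gave 17 for DMSO at 24 h, 6 and 12 for the NCP26 effect and 6 and 8 for the HFG effect at 6 h and 24 h, and between times 14 for CFZ and 15 for L363-CFZr HFG.

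With the library set term the count was 11 for AMO1 NCP26 at 24 h and 7 for AMO1 HFG at 24 h, where higher then outnumbered lower members. It was 20 for NCP26, 14 for HFG and 1 for halofuginol in L363-CFZr at 6 h. Between lines it was 8 for DMSO, 6 for the NCP26 effect and 3 for the HFG effect at 6 h, and between times 2 for NCP26, 12 for HFG and 8 for CFZ in AMO1 and 1 for NCP26 in L363-CFZr.

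The same replicate numbers occur in every group, and a replicate block was fitted. It gave 1 for AMO1 halofuginol at 6 h, 6 and 0 for L363-CFZr NCP26 at 6 h and 24 h, 3 for DMSO between lines at 24 h, with more members lower than higher, 0 for the NCP26 effect between lines at both times, 3 for CFZ and 1 for L363-CFZr HFG between times, and moved no other count by over 1.5 times. In 0 of 30 comparisons did every pair of equal number correlate above 0.1 in its deviations from the group means. In 0 did every sample correlate best with its own number. This check showed no pairing by number, and with 3 libraries in a group it could miss a weak one.

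Leaving out 1 library at a time gave counts of 19 to 24 for AMO1 NCP26/DMSO 6 h, 23 to 28 for AMO1 NCP26/DMSO 24 h, 23 to 28 for AMO1 HFG/DMSO 6 h, 12 to 15 for AMO1 HFG/DMSO 24 h, 6 to 10 for AMO1 CFZ/DMSO 6 h, 2 to 21 for AMO1 CFZ/DMSO 24 h, 4 to 16 for AMO1 NCP22/DMSO 6 h, 0 to 9 for AMO1 halofuginol/DMSO 6 h, 3 to 21 for L363-CFZr NCP26/DMSO 6 h, 0 to 13 for L363-CFZr NCP26/DMSO 24 h, 22 to 26 for L363-CFZr HFG/DMSO 6 h, 0 to 4 for L363-CFZr HFG/DMSO 24 h, 7 to 13 for L363-CFZr halofuginol/DMSO 6 h, 8 to 17 for AMO1 NCP26/NCP22 6 h, 20 to 23 for AMO1 NCP26/NCP22 24 h, 20 to 24 for AMO1 HFG/halofuginol 6 h, 15 to 20 for AMO1 HFG/halofuginol 24 h, 22 to 25 for AMO1 NCP26/HFG 24 h, 5 to 22 for L363-CFZr NCP26/NCP22 6 h, 11 to 15 for L363-CFZr NCP26/NCP22 24 h, 27 to 32 for L363-CFZr HFG/halofuginol 6 h, 4 to 7 for L363-CFZr HFG/halofuginol 24 h, 2 to 10 for L363-CFZr NCP26/HFG 24 h, 17 to 20 for DMSO between lines 6 h, 1 to 23 for DMSO between lines 24 h, 0 to 4 for NCP26 effect between lines 6 h, 0 to 10 for NCP26 effect between lines 24 h, 8 to 12 for HFG effect between lines 6 h, 3 to 9 for HFG effect between lines 24 h, 3 to 6 for NCP26 effect 24 h minus 6 h AMO1, 20 to 24 for HFG effect 24 h minus 6 h AMO1, 2 to 15 for CFZ effect 24 h minus 6 h AMO1, 0 to 1 for NCP26 effect 24 h minus 6 h L363-CFZr, 1 to 22 for HFG effect 24 h minus 6 h L363-CFZr. For DMSO between lines at 24 h, 3 of these fits gave 1 member, lower instead of higher. The count stayed at 0 for the other 7 comparisons. With 28 reads at the lowest, counting error limits the least abundant members.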

Other observations

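Members with and without the E-box in a promoter window are set side by side as values, with no test. In AMO1 with NCP26 at 6 h the median log2 fold change was -0.35 over the 15 members with the E-box, of which 7 were lower, and -0.45 over the 18 members without it, of which 13 were lower. At 24 h the medians were -0.57 with it and -0.39 without it, and 11 members of each kind were lower. With HFG at 6 h the medians were -0.31 and -0.48, with 8 and 13 members lower, and at 24 h -0.16 and -0.08, with 5 and 4 members lower. In L363-CFZr at 6 h they were -0.15 and -0.2 with NCP26, with 4 and 1 members lower. With HFG they were -0.26 and -0.32, with 8 and 11 members lower. The shares of all genes lower are those given above for each comparison. None of these splits was made without the libraries named above as standing apart, among them L363-CFZr NCP26 replicate 2 at 6 h. At 24 h in L363-CFZr 0 members of either kind were lower with NCP26 or HFG, and RRP1B, which was lower with NCP26, had no window among those matched.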
